A study of Mus musculus with 2 samples.

Results

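Noncoding-end regions are stretches of chromatin where RUNX2 CUT&Tag gave a peak in both replicates close to the end of a noncoding gene and away from every protein-coding gene end. A shared region joins all peaks that touch each other across the 2 replicates, by 1 bp or more, and contains at least 1 peak of each. The midpoint of its widest replicate 1 peak gave its position. A shared region on chromosomes 1 to 19 counted when this midpoint lay within 1 kb of either end of a RefSeq gene that is not protein-coding and over 1 kb from every protein-coding gene end. The rule kept 890 of the 17836 shared regions on these chromosomes (4.99%, 95% Wilson interval 4.68 to 5.32). Of the others, 5903 lay at protein-coding gene ends, 6727 inside genes and 4316 outside genes.

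The samples are 2 libraries of untreated MC3T3-E1 cells, an established mouse line of embryonic osteoblast precursors, made with an antibody against RUNX2 and the transposase Tn5 tethered by protein A. They form a single group, with no control library and no second condition. Whether the replicates were separate cultures is not stated, so their spread may be technical. The lists hold 26853 peaks in replicate 1 and 27287 in replicate 2, with only a position and a width in bp for each. Read depth is unknown. Width is the extent of a called peak, not its strength.

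RUNX2 is the Runt-domain transcription factor that osteoblasts need to form bone, and it binds DNA at a short core motif together with its partner CBFB. Noncoding genes fall into families with different polymerases. Long noncoding RNAs (lncRNAs), most spliceosomal snRNAs and most miRNA precursors are made by RNA polymerase II, while tRNAs, Y RNAs, vault RNAs, 7SL and 7SK are made by RNA polymerase III. Many lncRNA genes carry miRNAs or snoRNAs within their transcripts, and the promoter of the host then serves the small RNA too.

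Start sequences of 3 named lncRNA genes whose 300-base windows lay wholly inside a noncoding-end region show the range of composition found there. The windows run from 250 bases before the annotated start to 50 after it, are printed 5′ to 3′ on the gene's strand, and come from RefSeq (GRCm38.p6). Mir22hg, the host of the miRNA miR-22, holds the region ranked widest over both replicates at any lncRNA. Dnm3os, an antisense transcript needed for mouse skeletal growth, carries miR-199a-2 and miR-214. Crnde starts in a CpG-rich window beside the homeobox gene Irx5. Capitals mark the RUNX core TGTGGT or its reverse complement ACCACA, and the AP-1 motif TGANTCA on either strand.
Mir22hg chr11:75461289-75461588 (+): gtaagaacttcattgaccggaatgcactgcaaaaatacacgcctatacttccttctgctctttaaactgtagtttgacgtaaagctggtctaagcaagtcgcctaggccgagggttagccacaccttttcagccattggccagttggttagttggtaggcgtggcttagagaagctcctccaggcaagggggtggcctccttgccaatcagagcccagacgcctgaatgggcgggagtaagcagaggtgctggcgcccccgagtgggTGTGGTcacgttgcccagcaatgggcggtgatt
Dnm3os chr1:162217373-162217672 (+): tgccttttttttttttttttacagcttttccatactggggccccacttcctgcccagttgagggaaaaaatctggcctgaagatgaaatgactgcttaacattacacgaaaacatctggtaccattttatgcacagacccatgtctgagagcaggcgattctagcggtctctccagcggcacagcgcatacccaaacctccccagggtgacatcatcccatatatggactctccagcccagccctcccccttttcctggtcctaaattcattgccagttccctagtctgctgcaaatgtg
Crnde chr8:92356071-92356370 (-): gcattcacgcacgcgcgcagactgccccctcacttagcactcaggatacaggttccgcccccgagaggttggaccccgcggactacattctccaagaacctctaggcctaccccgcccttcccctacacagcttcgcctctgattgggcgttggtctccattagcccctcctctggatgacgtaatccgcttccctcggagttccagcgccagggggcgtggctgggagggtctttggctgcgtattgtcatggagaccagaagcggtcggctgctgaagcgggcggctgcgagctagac
Only the Mir22hg window of these 3 holds a capitalised match, a single RUNX core near its 3′ end.

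The next 3 windows, from provisional lncRNA models, are shown because each lies in its region for at least 283 of its bases and holds both motifs. Their low CpG content sets them apart from most protein-coding starts in shared regions.
Gm41113 chr14:25379027-25379326 (+): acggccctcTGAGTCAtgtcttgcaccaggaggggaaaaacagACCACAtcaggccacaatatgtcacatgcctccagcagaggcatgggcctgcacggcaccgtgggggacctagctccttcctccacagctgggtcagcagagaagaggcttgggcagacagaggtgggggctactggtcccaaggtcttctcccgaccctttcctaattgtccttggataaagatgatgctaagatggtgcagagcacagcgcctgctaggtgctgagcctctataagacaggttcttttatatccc
Gm52556 chr2:72351622-72351921 (-): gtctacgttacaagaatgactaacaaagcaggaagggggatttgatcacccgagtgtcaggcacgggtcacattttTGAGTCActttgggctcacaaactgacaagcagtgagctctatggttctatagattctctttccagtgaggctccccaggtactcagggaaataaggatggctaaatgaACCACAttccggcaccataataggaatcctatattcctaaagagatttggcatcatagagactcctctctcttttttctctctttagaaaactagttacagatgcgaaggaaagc
Gm5546 chr3:104360269-104360568 (-): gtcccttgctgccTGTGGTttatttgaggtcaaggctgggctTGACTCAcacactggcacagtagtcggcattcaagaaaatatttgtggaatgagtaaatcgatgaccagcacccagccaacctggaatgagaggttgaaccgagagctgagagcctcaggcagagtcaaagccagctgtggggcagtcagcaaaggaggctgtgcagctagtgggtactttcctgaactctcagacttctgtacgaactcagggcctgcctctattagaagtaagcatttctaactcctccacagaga
In Gm41113 and Gm52556 the RUNX core reads as ACCACA on the printed strand and in Gm5546 as TGTGGT, and the AP-1 match lies first in Gm41113 and Gm52556.

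Mature miRNAs of 8 genes at noncoding-end regions are printed because these regions include known regulators of bone, hypoxia and neuronal genes. The seed, bases 2 to 8, which pairs with target transcripts, is in capitals. The sequences are from RefSeq, in which 22 of the 26 miRNA genes with a noncoding-end region were matched to a hairpin.
mmu-miR-212-3p (Mir212): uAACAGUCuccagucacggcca
mmu-miR-132-3p (Mir132): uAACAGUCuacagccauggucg
mmu-miR-199a-5p (Mir199a-2): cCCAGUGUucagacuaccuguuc
mmu-miR-199a-3p (Mir199a-2): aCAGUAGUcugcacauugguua
mmu-miR-206-3p (Mir206): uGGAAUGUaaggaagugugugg
mmu-miR-210-3p (Mir210): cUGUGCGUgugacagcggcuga
mmu-miR-30a-5p (Mir30a): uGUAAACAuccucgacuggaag
mmu-miR-139-5p (Mir139): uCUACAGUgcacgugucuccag
mmu-miR-3092-3p (Mir3092): gAAUGGGGcuguuuccccucc
The 3p arms of miR-212 and miR-132 share the seed AACAGUC, and their genes also share 1 region. The genes Mir199a-1 and Mir199a-2, on different chromosomes, give the same mature sequences, and each had a region of its own.

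The 890 regions were spread over 967 noncoding genes, which is 3.67% of the 26338 noncoding genes on chromosomes 1 to 19 that could hold such a region. That 3.67% is the background against which each gene type and list is read. Most regions, 865, were made of 1 peak of each replicate. Only 77 regions had 2 or more noncoding genes within 1 kb, and 4 was the most at any region. Conversely, 25 genes had more than 1 region.

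lncRNA genes were nearest to 659 of the regions (74.0%, 71.1 to 76.8), pseudogenes to 112 (12.6%), tRNA genes to 47 (5.28%), snRNA genes to 32 (3.60%), miRNA genes to 23 (2.58%), snoRNA genes to 8, other RNA genes to 7 and immune receptor segments to 2 (Traj5 and Trbc2). Per gene the order was different. A noncoding-end region lay at 88 of 387 tRNA genes (22.7%, 18.8 to 27.2), at 667 of 12403 lncRNA genes (5.38%, 4.99 to 5.79), at 36 of 929 snRNA genes (3.88%, 2.81 to 5.32) and at 26 of 1125 miRNA genes (2.31%, 1.58 to 3.36). Pseudogenes were lower, with 120 of 9495 (1.26%, 1.06 to 1.51), and snoRNA genes, most of which sit inside introns, had 21 of 1315 (1.60%). Other RNA genes had 7 of 174 (4.02%) and immune receptor segments 2 of 510 (0.392%). The intervals of tRNA genes, lncRNA genes and pseudogenes did not overlap one another. Neighbouring tRNA genes can share a region, so the 88 are not independent, and the interval of tRNA genes takes no account of this. When regions at protein-coding ends were counted as well, 30.7% of tRNA genes, 11.0% of lncRNA genes and 1.74% of pseudogenes had a shared region within 1 kb.

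**Figure D1:**
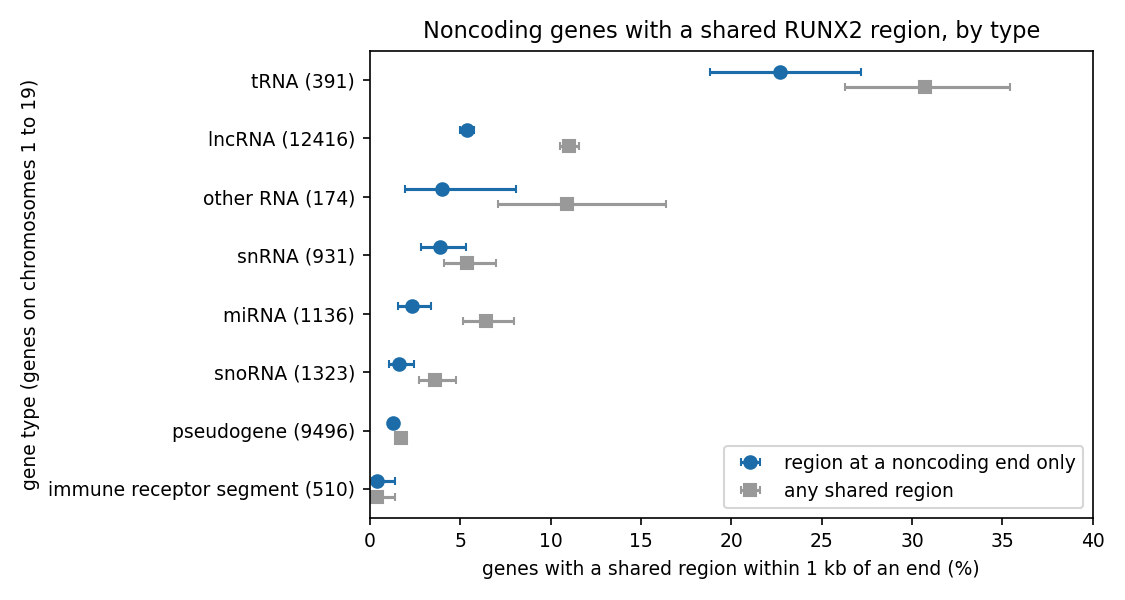
Share of noncoding genes on chromosomes 1 to 19 with a shared RUNX2 region within 1 kb of an end (x axis, percent) by gene type (y axis, number of genes in parentheses). Circles count noncoding-end regions, over the genes that could hold one, and squares any shared region, with 95% Wilson intervals as bars; tRNA genes stand highest at 22.7% and 30.7%.

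Widths differed by gene type, in the same order in both replicates for the 4 types with the most regions. The median peak was 872.5 bp in replicate 1 and 820 bp in replicate 2 at snRNA genes, and 710 and 703 bp at tRNA genes. It was 492 and 526 bp at lncRNA genes, and 446 and 434.5 bp at pseudogenes. Regions at miRNA genes had medians of 562 and 491 bp. Some tRNA regions took in more than 1 tRNA gene, and widths were not split by this. At least 1000 bp in both replicates was reached by 40 of the 890 regions (4.49%, 3.32 to 6.06), against 178 of 5903 at protein-coding ends (3.02%, 2.61 to 3.48), 170 of 6727 inside genes (2.53%) and 102 of 4316 outside genes (2.36%). By gene type these 40 were 20 at lncRNA, 12 at snRNA, 4 at tRNA, 3 at pseudogenes and 1 at another RNA, and the 12 were 37.5% (22.9 to 54.7) of the snRNA regions. Copies of snRNA, tRNA and rRNA genes can be nearly identical, and how reads that match several copies were placed is not given in the sources used here, so which copy bore a peak is uncertain for these types.

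**Figure D2:**
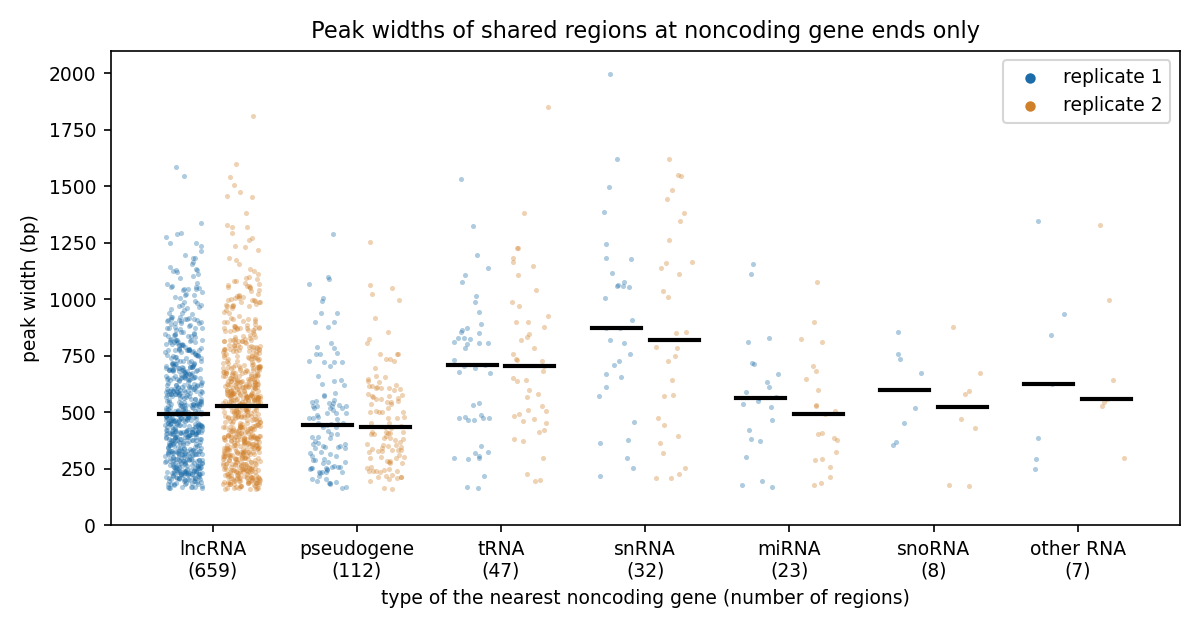
Peak width in bp (y axis) of each noncoding-end region in replicate 1 (blue) and replicate 2 (orange), by type of the nearest noncoding gene (x axis, number of regions). Black bars are medians; among the 7 types drawn, which leave out the 2 immune receptor segments, they are highest at snRNA genes, 872.5 and 820 bp, and lowest at pseudogenes, 446 and 434.5 bp.

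The regions ranked widest lay at genes of several types. Ranked by width in each replicate and averaged, the first was the region at the histidine tRNA gene n-THgtg8 (chr3:96499474-96501323), with 1533 bp in replicate 1 against 1850 bp in replicate 2. This region also held the tRNA genes n-TKctt16 and n-TGtcc7, so its width is not that of a single gene. Mir22hg came next (chr11:75460243-75461841), with 1544 and 1540 bp. Rnu2-10, a gene of the U2 spliceosomal RNA, had 1498 and 1384 bp (chr11:101658416-101659914). The replicates gave nearly the same width at Mir22hg and differed by more at n-THgtg8. Rnu1a1, for the U1 RNA that recognises 5′ splice sites, had 1621 and 1261 bp, and Rnu5g, for the U5 RNA, 1179 and 1345 bp. A second tRNA region among the first 6 was at n-TCgca55, for cysteine, with 1324 and 1384 bp, and it also held n-TCgca54.

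Several snRNA regions lay close together. On chromosome 11, Rnu1a1 and the U3 genes Rnu3b2, Rnu3b3 and Rnu3b4 all lay within the span of the protein-coding gene Tex14, over 10 kb from its ends. The U3 RNA, which serves early rRNA processing, had widths of 1059 and 1011 bp at Rnu3b2, 1061 and 1110 bp at Rnu3b3, and 1056 and 1139 bp at Rnu3b4. All 3 were wider than 1000 bp in both replicates, and the midpoints lay 478, 423 and 435.5 bp from the gene. Rnu3b1, another U3 gene within that span, had a narrower region of 867 and 744 bp, whose nearest gene end was that of the lncRNA model LOC115487798. At Rnu3a on chromosome 10, the replicates disagreed, with 1997 and 783 bp. On chromosome 1, 4 provisional snRNA models close together each had a region, at Gm24497 (1386 and 1442 bp), Gm25360 (1065 and 1165 bp), Gm25939 (1118 and 1038 bp) and Gm23472 (613 and 211 bp).

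Position relative to the gene differed between tRNA and snRNA regions. A tRNA region usually covered its whole gene, at 39 of 47 (83.0%, 69.9 to 91.1), and its midpoint lay a median 97 bp from the nearer gene end. snRNA regions covered the gene at 13 of 32 (40.6%, 25.5 to 57.7), with a median of 429.75 bp to the gene, and miRNA regions at 8 of 23 (34.8%, 18.8 to 55.1). Across all 890 regions the median was 315.75 bp. Midpoints within 100 bp of a gene end made up 24 of 47 tRNA regions (51.1%, 37.2 to 64.7) and 163 of all 890 (18.3%, 15.9 to 21.0), the tRNA regions included.

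tRNA genes with a region were unevenly spread over the genome. Chromosome 11 had 21 of 48 tRNA genes at 9 regions and chromosome 1 had 14 of 37 at 7, while the large clusters on chromosomes 13 and 6 had 7 of 105 and 3 of 53. By amino acid, 10 of 15 proline genes and 10 of 24 leucine genes had a region, against 3 of 56 cysteine genes and 1 of 22 serine genes. These are examples of high and low counts, and the share of all tRNA genes was 22.7%. Neighbouring tRNA genes could share a region. At n-TPtgg4 and n-TVaac7 on chromosome 11, 1 region was 807 and 570 bp wide and a second 168 and 225 bp. tRNA genes of 1 cluster are therefore not independent of one another.

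A list of other small structural RNAs was read in the same way. Of 15 such genes that could hold one, 8 had a noncoding-end region (53.3%, 30.1 to 75.2), where 3.67% of all noncoding genes did. This list and the gene lists below were written with earlier results of these data known, so their shares are descriptions only. Rn7sk, whose 7SK RNA holds the elongation factor P-TEFb inactive, had 1057 and 811 bp. Rnu11, of the minor spliceosome, had 873 and 1160 bp. Both were among the wider regions. The Y RNA genes Rny1 and Rny3, whose products bind the Ro protein, had 842 and 528 bp at Rny1 and 386 and 298 bp at Rny3. Rn7s2, a gene for the 7SL RNA of the signal recognition particle, had 627 and 645 bp, close in both replicates. Vaultrc5, the vault RNA gene, had 680 and 702 bp, and Scarna2, a guide RNA of Cajal bodies, had 451 and 429 bp. Another 6 listed genes (Rmrp, Rpph1, Rn7s1, Rnu12, Rnu7 and Bc1) had a shared region within 1 kb that also lay within 1 kb of a protein-coding gene end. Of these, Rnu7 could not hold a noncoding-end region and is not among the 15. The telomerase RNA gene Terc had none within 1 kb.

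Host genes of snoRNAs, whose introns release the small RNAs on splicing, form another list of lncRNAs. A noncoding-end region lay at 10 of 20 listed hosts (95% interval 29.9 to 70.1%), where 5.38% of lncRNA genes had one. Snhg17 had 1114 and 757 bp, Snhg8 663 and 941 bp, and Snhg12 822 and 547 bp. Dancr, a lncRNA studied as a brake on osteoblast differentiation, had 732 and 617 bp. Snhg16 had 719 and 569 bp, Snhg5 603 and 614 bp, and Snhg9 535 and 637 bp. The narrowest were Snhg7 (508 and 450 bp), Snhg15 (357 and 419 bp) and Snhg3 (216 and 331 bp). The rule requires a midpoint within 1 kb of a gene end, and in these 10 the distance ran from 0 bp at Snhg9 to 289.5 bp at Snhg7. Another 5 hosts, Snhg6, Gas5, Zfas1, Snhg18 and Snhg1, had a shared region that counted at a protein-coding end. snoRNA hosts are known as widely expressed genes, and transcript levels were not measured here.

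Of 27 lncRNAs with a literature of their own, 5 had a noncoding-end region (18.5%, 8.18 to 36.7), where 5.38% of lncRNA genes did. Neat1, the scaffold of paraspeckles, had 1141 and 1811 bp, and its neighbour Malat1, a nuclear speckle RNA, had 404 and 1327 bp. The Malat1 region was made of 2 peaks in replicate 1 and 1 in replicate 2, and at both genes replicate 2 was the wider. Trp53cor1, the p53-induced lincRNA-p21 next to the cell cycle inhibitor gene Cdkn1a, had 973 and 1054 bp at 1 end and a second region of 328 and 181 bp at the other end, nearer to the lncRNA model Gm41556. Kcnq1ot1, the imprinted antisense RNA of the Kcnq1 domain, had 709 and 687 bp, with the replicates close. Crnde had 412 and 673 bp. H19, Meg3, Norad, Hotair and Airn were among those without a noncoding-end region, and Tug1 and Fendrr had a region at a protein-coding end. Airn had the midpoints of 4 shared regions inside its span, away from its ends, while H19, Meg3, Norad and Hotair had none inside theirs.

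None of 16 noncoding genes of the Hox clusters had a noncoding-end region, which allows a share of up to 19.4% (95% Wilson interval). The share of all noncoding genes, 3.67%, lies inside that interval. Hotair and Hottip are in this list and in the previous one.

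Among miRNA loci, 2 of 10 listed host genes had a region (95% interval 5.67 to 51.0%), Mir22hg and Dnm3os. Of all lncRNA genes, 5.38% had one. The Dnm3os region (chr1:162217111-162217746) was 574 and 505 bp wide and its midpoint lay 225.5 bp upstream of the start printed above and 416.5 bp from the 5′ end of the Mir199a-2 hairpin. Of 26 miRNA genes studied in osteoblasts 2 had a region (7.69%, 2.14 to 24.1), Mir199a-2 by way of the Dnm3os region and Mir206. The share of all miRNA genes, 2.31%, lies inside that interval. Mir206, a miRNA of skeletal muscle that is also known to restrain osteoblast differentiation, had a narrow region of 375 and 187 bp that covered the hairpin. Mir2861 and Mir3960, known in mouse as a cluster linked to RUNX2, had regions within 1 kb that counted at a protein-coding end. Mir23a, Mir34b, Mir34c, Mir21a and Mir29a had no shared region within 1 kb.

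Most miRNA regions, 16 of 23 (69.6%, 49.1 to 84.4), lay inside a protein-coding gene. How many of all miRNA genes lie inside a protein-coding gene was not counted. Mir3092, within the span of the fibronectin type III domain gene Fndc3b, had 716 and 685 bp. Mir199a-1, within Dnm2, had 550 and 325 bp. Both hairpins lie inside the span of their coding gene. Mir139, within the span of Pde2a, had 537 and 406 bp. Other miRNA regions lay outside protein-coding genes. The region that holds Mir212 and overlaps Mir132 (chr11:75173085-75173728), miRNAs induced by CREB in neurons, was 611 and 601 bp wide. Mir210, the hypoxia-induced miRNA, had 384 and 379 bp, nearly equal in both replicates, and Mir30a had 831 and 410 bp. The widest at miRNA genes were Mir7653 (1157 and 707 bp), Mir5620 (717 and 1076 bp), Mir3075 (1113 and 649 bp) and Mir7688 (671 and 900 bp), little-studied miRNAs whose replicates differed in width.

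The remaining lncRNA regions were mostly at genes without a given name. Provisional models named Gm or LOC made up 462 of 659 (70.1%, 66.5 to 73.5), clone names ending in Rik 150 (22.8%) and other names 47 (7.13%). Their median widths were 478.5 and 510.5 bp, 521.5 and 541.5 bp, and 508 and 637 bp. The widest after Mir22hg were 9330188P03Rik (1216 and 1384 bp), Neat1, Gm38882 (1339 and 1220 bp), Gm38560 (1288 and 1184 bp), Gm41113 (1293 and 1126 bp), Gm34503 (1134 and 1270 bp), Gm35692 (1093 and 1321 bp), F830208F22Rik (1022 and 1505 bp) and Gm51725 (1274 and 1069 bp). All of them exceeded 1000 bp in both replicates. Their distance to the nearest protein-coding end varied, from 279966.5 bp at 9330188P03Rik to 1297.5 bp at F830208F22Rik. Among pseudogenes the widest were Gm25406 (1290 and 1254 bp), Rn18s-rs5, a copy related to the 18S rRNA gene (1090 and 1048 bp), 4632415L05Rik (1008 and 1023 bp), Gm17955 (1099 and 917 bp) and Gm5711 (939 and 998 bp).

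Genes with regions at more than 1 place included Platr22, with 653 and 674 bp at its start and 1021 and 545 bp at the other end. At 2900024J01Rik the regions were 775 and 660 bp and 415 and 364 bp wide, 1 at each end of the gene. A630001O12Rik had 702 and 888 bp at 1 end and 797 and 856 bp at the other. Gm11767 had 956 and 714 bp at its start and 1236 and 863 bp at its 3′ end. Each of these genes thus had peaks of both replicates near both ends.

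Several regions had a protein-coding gene with a role in bone as their nearest, and these examples were chosen after their values were seen. Distances run from the midpoint that gives the region its position, not from the noncoding gene. The region at Gm46293 (466 and 825 bp) lay 7.42 kb from an end of Col1a1, the gene of the main collagen chain of bone. It was near the 3′ end of Gm46293. The region at Gm30662 (1010 and 1157 bp) lay 22.6 kb from an end of Tnfsf11, which encodes the osteoclast-inducing ligand RANKL. Both had narrower peaks in replicate 1 than in replicate 2. The region at Gm39054 lay 19.1 kb from an end of Wnt11 (1184 and 980 bp). At 1110036E04Rik it was 28.3 kb from Smad6, an inhibitor of BMP signalling (713 and 912 bp). At Gm31048 it was 26.1 kb from the osteocyte matrix gene Dmp1 (436 and 175 bp). The region at Gm15222 (317 and 194 bp) lay inside the span of a protein-coding gene, 3.37 kb from the nearest end of Bmp4. The gene that spans this region may be Bmp4 itself. Nearness gives position alone, not a regulated gene. How often other shared regions had such a neighbour was not counted.

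In the genome as a whole, 274 of the 890 regions (30.8%, 27.8 to 33.9) lay inside the span of a protein-coding gene. The nearest protein-coding end was a median of 17955.25 bp away. It was within 10 kb for 34.8% (31.8 to 38.0) and over 50 kb away for 22.5% (19.9 to 25.3). Regions at tRNA genes were rarely inside a protein-coding gene, at 3 of 47 (6.38%, 2.19 to 17.2), and had a coding end beyond 50 kb at 2 of 47. The share of shared regions that were noncoding-end regions ran from 2.94% (2.07 to 4.17) on chromosome 4 to 6.75% (5.46 to 8.31) on chromosome 1. At the limit of the rule, the region at Gm32025 was 998.5 bp from the gene and counted, while a region 1000.5 bp from Gm32725 did not. Gm32725 had another region, of 267 and 446 bp, that counted. Snord104 was kept with its region 1033.5 bp from an end of Tex2, and Mir92b was left out because its region, of 1123 and 1154 bp, lay 998 bp from an end of Thbs3.

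Most lncRNA regions lay at the start of the gene. The rule left out every region within 1 kb of a protein-coding end, also where a lncRNA starts there: 1365 lncRNA genes had any shared region within 1 kb, and 667 had a noncoding-end region. The shares that follow therefore describe the regions the rule kept, not lncRNA starts in general. Strand was known from the RefSeq start table for 532 of the 659 lncRNA regions. Of these, 366 (68.8%, 64.7 to 72.6) lay within 1 kb of an annotated start only, 129 (24.2%, 20.8 to 28.1) within 1 kb of the 3′ end only, 30 within 1 kb of both and 7 of neither. Of 4846 regions at protein-coding ends with a known strand, 92.9% (92.1 to 93.6) lay at a start only and 3.55% (3.06 to 4.11) at the 3′ end only. Peaks at lncRNA starts had medians of 524 and 566 bp, and those at lncRNA 3′ ends 436 and 431 bp. Both replicates thus had narrower peaks at the 3′ ends.

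Midpoints were spread more widely around the lncRNA starts that the rule kept than around protein-coding starts. Of 396 within 1 kb of a start, 205 (51.8%, 46.9 to 56.6) had a midpoint within 250 bp of it, against 3556 of 4539 at protein-coding genes (78.3%, 77.1 to 79.5). Midpoints were upstream of the start in 50.5% (45.6 to 55.4) of the lncRNA regions and 57.7% (56.3 to 59.2) of the protein-coding ones. Annotated lncRNA starts come mostly from provisional models, and how exactly they mark the true start was not tested.

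**Figure D3:**
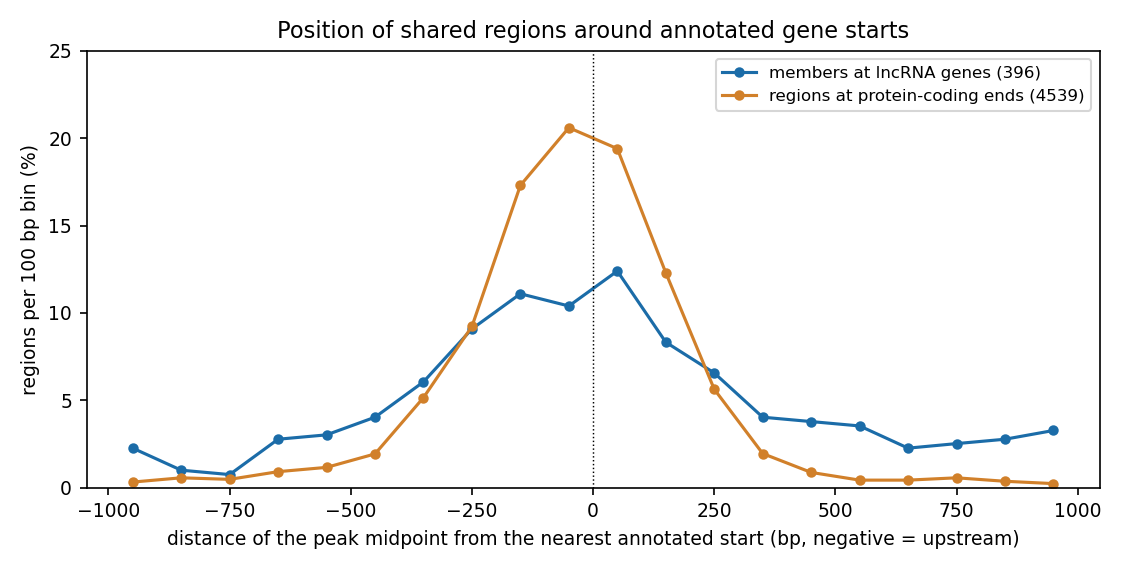
Distance of the peak midpoint from the nearest annotated start in bp (x axis, negative upstream) against the percent of regions per 100 bp bin (y axis), for 396 noncoding-end regions at lncRNA genes (blue) and 4539 regions at protein-coding ends (orange). The lncRNA curve is lower at the centre, with 51.8% within 250 bp of the start against 78.3%, and higher beyond it.

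Noncoding-end peaks were found in both replicates less often than peaks at protein-coding ends. Before merging, 906 of 1325 such peaks of replicate 1 (68.4%, 65.8 to 70.8) overlapped a replicate 2 peak, and 917 of 1337 of replicate 2 (68.6%, 66.0 to 71.0) overlapped a replicate 1 peak. At protein-coding ends the shares were 83.9% (83.0 to 84.7) and 83.5% (82.7 to 84.4), inside genes 62.7% (61.8 to 63.7) and 61.1% (60.2 to 62.0), and outside genes 61.6% (60.4 to 62.7) and 60.5% (59.4 to 61.7). The shares of replicates 1 and 2 count largely the same overlaps from either side, so their closeness is no measure of error, and no test between classes was possible. By gene type the shares were 84.6% and 80.0% for snRNA, 72.9% and 81.2% for tRNA, 68.4% and 68.8% for lncRNA, 64.7% and 62.1% for pseudogenes, and 60.5% and 61.9% for miRNA genes.

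Wider peaks were found in both replicates more often. Of noncoding-end peaks up to 250 bp wide, 38.5% (33.1 to 44.1) in replicate 1 and 38.1% (33.0 to 43.5) in replicate 2 overlapped a peak of the other replicate, against 52.0% and 49.1% at protein-coding ends, 34.0% and 32.6% inside genes, and 34.5% and 30.7% outside genes. Above that and up to 400 bp the shares were 55.1% and 58.5% (53.1 to 63.6 in replicate 2), against 74.5% and 74.2%, 53.5% and 52.1%, and 52.7% and 52.9% for the same 3 places. Above 400 and up to 600 bp they were 81.7% (77.1 to 85.6) and 78.4% (73.5 to 82.6), against 89.9% in both replicates, 78.9% and 76.9%, and 76.4% and 78.1%. Over 600 bp they were 95.7% (93.1 to 97.4) and 96.5% (94.0 to 97.9), against 97.5% and 97.3%, 94.3% and 94.6%, and 94.9% and 93.8%. Up to 600 bp the intervals at noncoding ends lay below those at protein-coding ends in every width class, and over 600 bp they overlapped. Within a width class the intervals at noncoding ends overlapped those inside and outside genes, except against replicate 2 peaks up to 250 bp outside genes (28.7 to 32.7).

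**Figure D4:**
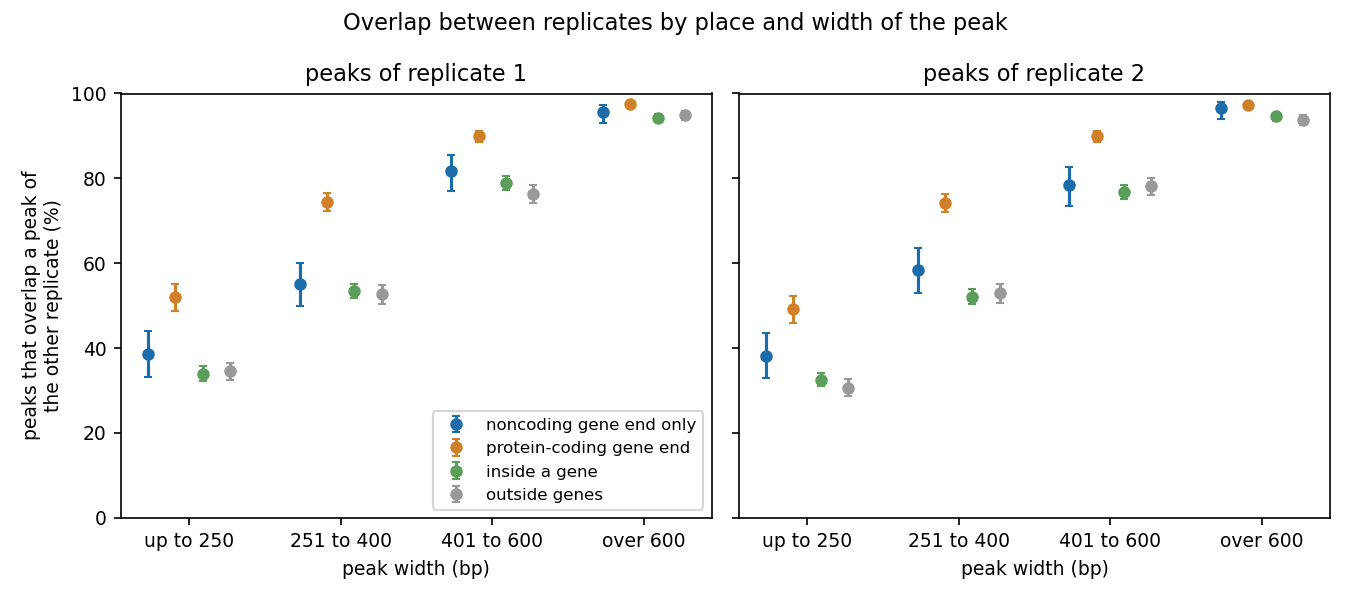
Percent of peaks that overlap a peak of the other replicate (y axis) by peak width in bp (x axis) and place, for replicate 1 (left) and replicate 2 (right). Points are shares and bars 95% Wilson intervals; noncoding-end peaks (blue) lie below protein-coding ends (orange) at 250 bp or less, 38.5% against 52.0% in replicate 1, and close to peaks inside genes (green) and outside genes (grey) of the same width.

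Among shared regions, the median widths at noncoding ends were 501 bp in replicate 1 and 530 bp in replicate 2, against 541 and 546 bp at protein-coding ends, 466 and 469 bp inside genes and 467.5 and 466 bp outside genes. They were 28 ± 17 bp below protein-coding ends and 48 ± 18.4 bp above regions inside genes (SD, n = 2). Widths of the 2 replicates had a Spearman correlation of 0.64 over the 890 regions and 0.56 over the 16946 other shared regions, as a description of points that share 2 libraries. Replicate 2 was the wider at 447 of 890, and 112 (12.6%) differed over 2-fold.

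The start windows of lncRNA genes at these regions had less CpG than protein-coding starts in shared regions and more than lncRNA starts without a region. Of 667 lncRNA genes with a noncoding-end region, 539 were matched to a start window, 1 per gene. Their median GC content was 52.3% and their median CpG ratio, observed over expected from base content, 0.365. For the 273 windows with at least 150 bases inside the region, the values were 54.7% and 0.541. Protein-coding starts in a shared region (5149) had 62.0% and 0.821, lncRNA starts with no shared region within 1 kb (8392) had 47.7% and 0.229, and all 31396 windows on chromosomes 1 to 19 had 53.0% and 0.389. A CpG ratio of at least 0.6 was found in 44.7% (38.9 to 50.6) of the 273, in 85.9% of the protein-coding windows, in 9.44% of the lncRNA windows without a region and in 36.4% of all windows.

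The RUNX core TGTGGT, on either strand, was in 116 of the 539 windows (21.5%, 18.3 to 25.2), in 20.7% of lncRNA starts with no shared region and in 16.7% of all 31396 windows of that length on chromosomes 1 to 19. The first of these shares is near that of lncRNA starts without a region. Of the 273 windows with at least 150 bases inside the region, 67 held it (24.5%). The windows were then split at a CpG ratio of 0.6. Below it, 94 of 385 windows of the whole set held the core (24.4%, 20.4 to 28.9) and 47 of the 151 that lay inside a region did (31.1%, 24.3 to 38.9), against 19.5% (16.8 to 22.5) of protein-coding starts in a region, 21.6% (20.7 to 22.5) of lncRNA starts without one and 20.7% of all windows. At or above it, 22 of 154 windows of the whole set (14.3%, 9.63 to 20.7) and 20 of 122 inside a region did (16.4%, 10.9 to 24.0), against 10.8% (9.94 to 11.8), 12.2% and 9.74%. The longer TGTGGTT, which contains the core, was in 15 of the 151 (9.93%, 6.11 to 15.7) and in 6.86% of all windows with low CpG.

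The AP-1 motif TGANTCA, bound by FOS and JUN proteins, was in 77 of the 539 windows (14.3%, 11.6 to 17.5) and in 49 of the 273 inside a region (17.9%, 13.9 to 22.9), against 9.43% of lncRNA starts with no shared region and 7.84% of all windows. With a CpG ratio under 0.6, it was in 72 of 385 windows of the whole set (18.7%, 15.1 to 22.9) and in 45 of the 151 inside a region (29.8%, 23.1 to 37.5), against 9.12% (7.23 to 11.4) of protein-coding starts in a region, 9.99% (9.33 to 10.7) of lncRNA starts without a region and 10.3% of all windows. With a ratio of at least 0.6, it was in 5 of 154 (3.25%, 1.39 to 7.37) and in 4 of the 122 inside a region (3.28%, 1.28 to 8.13), against 3.75% of protein-coding starts in a region. By the width of the region, 17 of the 136 windows in wider regions (12.5%, 7.95 to 19.1) and 32 of the 137 in narrower ones (23.4%, 17.1 to 31.1) held it, and the intervals overlapped. The GC box GGGCGG was in 122 of the 273 windows (44.7%, 38.9 to 50.6), against 71.5% of protein-coding starts in a region. A match describes the letters of a window and is not a measured binding site.

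**Figure D5:**
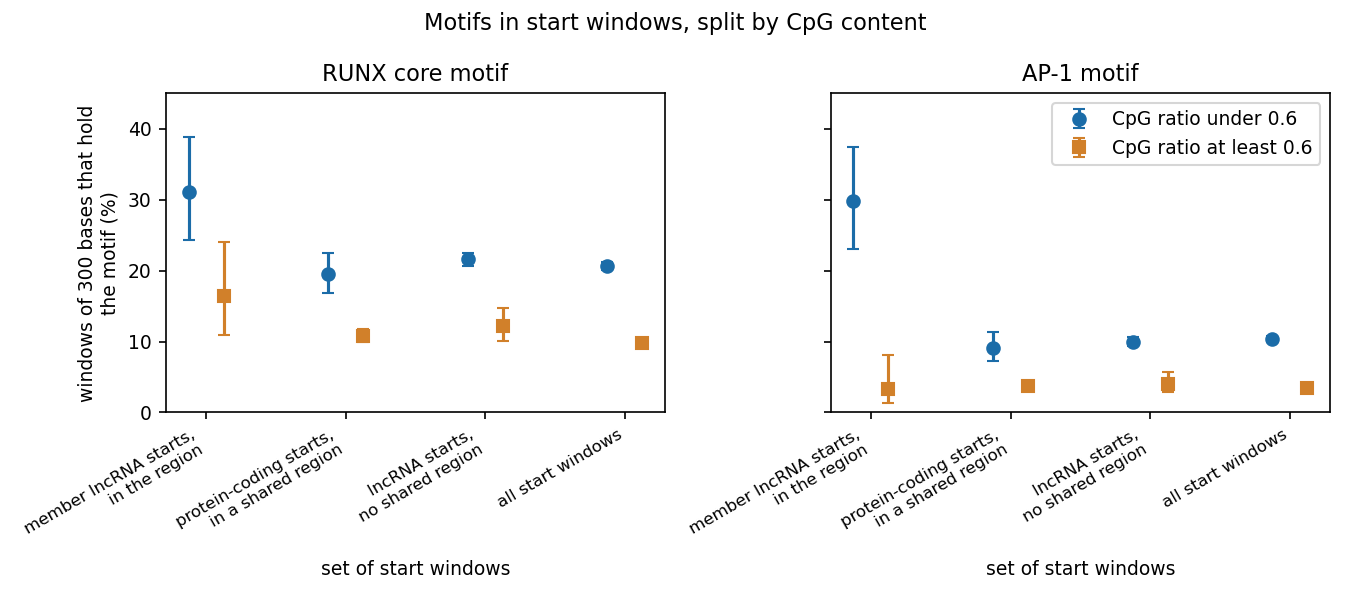
Percent of 300-base start windows (y axis) with the RUNX core (left) or the AP-1 motif (right) in 4 sets of windows (x axis), for a CpG ratio under 0.6 (blue circles) and of at least 0.6 (orange squares), with 95% Wilson intervals as bars. Low-CpG lncRNA starts inside a noncoding-end region stand highest for both, at 31.1% and 29.8%; over all low-CpG lncRNA starts at noncoding-end regions, inside or not, the shares were 24.4% and 18.7%.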

How the data were processed

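RUNX2 CUT&Tag peaks of 2 libraries of MC3T3-E1 cells were analysed. The deposited peak lists hold, in units other than reads, a running number, the chromosome, start, end and width in bp of each peak, and they were listed per replicate. Per the submitters' processing notes, fastp 0.19.6, Bowtie2 and deepTools were used with GRCm38 (mm10). Peak caller, threshold and any control were not given in the sources used here. Depth is unknown, so Wilson intervals (95%) cover counting error over peaks, genes or windows only, and these are not independent replicates.

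Genes came from a RefSeq table of GRCm38.p6, which gives no strand. Either gene end was therefore used, and strand was taken from the RefSeq table of start windows where it matched. Genes that are not protein-coding in the table count as noncoding, pseudogenes and immune receptor segments included. Merging was checked against bedtools 2.31.1, where both counts of overlapping peaks (18323 and 18327) were equal, and the classes were tested on simulated data with 1816 regions, none of which differed from a direct search. Python 3.11.15, pandas 2.3.3 and scipy 1.17.1 were used.

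A gene could hold a noncoding-end region if some position within 1 kb of its ends lies over 1 kb from every protein-coding end. Named genes are the 10 widest lncRNA, 5 miRNA, 5 pseudogene and 5 other regions by mean rank of peak width, listed genes with a region, and up to 10 genes with more than 1 region; others are named as chosen after their values were seen. Regions and lists were chosen with earlier results of these data known. With 1 group and 2 replicates no test between conditions was possible. Alternatives were another overlap, distance, position, gene set, chromosome set, wider peaks only and each replicate alone.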

Additional observations from a re-analysis of the deposited data

Results flagged for a closer look

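Chromosomes X and Y were outside the rule. There, 8 shared regions lay at noncoding gene ends only, all of them on X, where they made up 2.77% (95% Wilson interval 1.41 to 5.37) of 289 shared regions, and none of the 3 on Y. They are listed because the regions described above leave these chromosomes out. The share on chromosomes 1 to 19, 4.99%, lies inside the interval of the X share, so no difference between them was detectable. One is at Jpx, an activator of Xist (568 and 390 bp wide in replicates 1 and 2), and others are at Gm1720 (758 and 600 bp), Gm6787 (491 and 765 bp) and Mir5617 (517 and 419 bp).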

How the results depend on the processing

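The share inside a protein-coding gene stayed between 28.1% and 32.0% under all 12 alternatives, and the share of starts with TGTGGT between 20.9% and 22.3% except for 17.6% without provisional gene models. The number of regions was 480 when peaks at or under their list's median width were dropped, 324 without provisional models, and 1325 to 1337 with a replicate left out, where no sharing is required. The lncRNA share was 62.3% without provisional models, 84.7% without pseudogenes and 81.4% without snRNA and tRNA genes, an alternative added after seeing the data. Median width was 554.5 bp with a reciprocal overlap of at least 50%, 682.75 bp with wider peaks only, 494 bp at 2 kb, 558.5 bp without provisional models, and 401.0 to 407.0 bp with a replicate left out. The overlap of noncoding-end peaks was 51.0% with reciprocal overlap, 71.7% with wider peaks only, 72.4% at 500 bp and 73.9% without provisional models. Fewer regions or genes enter by construction where peaks or genes are left out; the cause of the other shifts was not tested. The overlap has no value for the merged midpoint or for a single replicate. No paired analysis was possible because the series holds a single group. Without heights, depth or a control library, peak strength and background could not be assessed.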
